A study of Triticum aestivum with 16 samples.

Results

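The second field replicate of each wheat line was compared with the first. All 16 of the 16 arrays entered, as 8 pairs, and each pair was the array labelled replicate 2 minus the array labelled replicate 1 of the same line, in log2 units. The pairs were chosen by the labels and not by any measured value. The comparison asks whether any transcripts differed in 1 direction over the lines, as growth in a common field block would give.

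The lines were SB3, SB10, SB57, SB62, SB69, SB109, SB165 and SB169, recombinant inbred lines of bread wheat (Triticum aestivum) from the cross of Seri M82 with Babax. Every line was grown rain-fed at 1 site, in plots sprayed against weeds and leaf disease, and each was sown in 2 field replicates. A sample was the stem top at anthesis, that is the peduncle and the internode under it with the leaf sheath still on. It pooled 7 to 8 main-tiller stems of 1 plot, cut about 2 days after heavy rain while the soil was wet, so all 16 arrays carry that condition. By the labels, genotype and treatment were therefore the same on both sides of each pair and the plot differed, while extraction, labelling and scan batches are not given. The labels number the replicates 1 and 2 but do not say whether plots with the same number stood in the same block. With 8 pairs of plots, p-values measure the spread between plots.

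In field trials, plots are grouped into blocks because soil water, nutrients and disease vary across a site, and plants of a block share that variation. The stem top of a cereal is a mixed tissue at anthesis: some of it can still be dividing and elongating, other parts lay down lignified walls, the green sheath photosynthesises, and the internode stores fructan. Histone proteins are made mainly while DNA is copied, and tubulins build the microtubules that guide cell division and the laying down of cellulose. In pooled tissue, fewer cells of a type and less RNA per cell cannot be told apart.

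The median intensity of an array ran from 23.56 to 25.01, and replicates of a line correlated at 0.985 to 0.995 over the 61115 wheat probe sets. Of these, 1273 were paired with 1 gene and 200 of them with a readable gene name. Among the named ones, mean log2 levels ran from 2.34 to 14.85 over the 36 probe sets of photosynthesis (median 4.67), from 2.88 to 10.95 over the 5 of fructan and sucrose metabolism, and were 8.46 and 12.68 for the 2 of cell walls and lignin. Lists named for tissues outside the labelled sample ran from 2.62 to 12.74 over 6 probe sets of anther and pollen markers (median 4.65) and from 2.09 to 9.46 over 17 of grain storage proteins (median 2.92). Probe sets of the same gene, the large Rubisco subunit rbcl, spanned 2.34 to 14.85, so levels of different probe sets are not comparable and these ranges do not settle which tissues were present. Profilin-1, an actin-binding protein placed here in the anther and pollen list, had the highest levels of that list, at 11.49 and 12.74. These levels were not taken as a sign of pollen, and the raftin anther proteins lay between 2.62 and 4.96. Detection calls were not used here.

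Of the 61115 wheat probe sets, 1 (0.00164%) passed the test of a shift shared by the lines, at an adjusted p of 0.013 in limma with a term for line. It was lower in replicate 2. The lowest adjusted p among the other probe sets was 0.297. None passed as higher (0%), and the lower calls were again 0.00164%. At an unadjusted p under 0.05 there were 5093 (8.33%), of which 2779 were higher (4.55%) and 2314 lower (3.79%). Mean shifts were small, with quartiles of -0.071 and 0.055 log2 units around a median of -0.010 and a median standard error of 0.078. In 42 probe sets the mean shift reached 2-fold, 41 of them upward, and in 416 it reached 0.5 log2 units, 365 of them upward. The share at an unadjusted p under 0.05 was 11.3% among probe sets above the median level and 5.33% among those below it.

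The probe set that fell was Ta.959.1.S1_at, paired with LOC543317 (Entrez gene 543317), a gene for which no function is given in the tables used here. Its log2 level in replicate 1 was 8.45 in SB3, 8.03 in SB10, 8.39 in SB57, 7.97 in SB62, 7.39 in SB69, 8.79 in SB109, 8.45 in SB165 and 9.03 in SB169. In replicate 2 it was 7.72 in SB3, 7.18 in SB10, 7.92 in SB57, 7.07 in SB62, 6.92 in SB69, 7.94 in SB109, 7.88 in SB165 and 8.63 in SB169. Levels in replicate 1 and replicate 2 overlapped as groups, because the lines themselves differ, but within each of the 8 lines replicate 2 was the lower. The mean difference was -0.66 log2 units (SE 0.072, SD of the 8 differences 0.20), so replicate 1 was 1.58-fold the higher (limma adjusted p = 0.013). The differences ran from -0.91 in SB62 to -0.40 in SB169. The size did not rest on any 1 line, at -0.62 to -0.69 with a line left out, but the call did: the adjusted p was 0.0712 without SB62 and 0.0566 without SB3. It was also lost when arrays were centred on their medians (adjusted p = 0.0528), and it was lost without SB165 and SB3 together, where the difference was -0.66 and the adjusted p 0.103.

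The next in order by the same statistic did not pass, and neither has a gene name here. TaAffx.108908.1.S1_x_at was lower in 8 of 8 lines, with a log2 difference of -0.57 (SE 0.087, limma adjusted p = 0.297). Its log2 level ran from 7.55 to 8.43 in replicate 1 and from 6.54 to 7.89 in replicate 2, so the groups overlapped while replicate 2 was the lower in every pair. The smallest of its 8 differences was -0.20 in SB109 and the largest -1.09 in SB62. In the upward direction, TaAffx.18447.1.S1_at led with 0.73 log2 units (SE 0.13, limma adjusted p = 0.446). It was higher in 7 of 8 lines, by 0.41 in SB10 up to 1.50 in SB57, and differed by -0.14 in SB109. SB109 had the highest level of all lines in replicate 1, at 8.89, while the others lay between 6.85 and 7.60. Without SB109 the difference was 0.85 and passed (limma adjusted p = 0.0491). TaAffx.113099.1.S1_at was higher in 8 of 8 lines by 0.20 to 0.71, with a mean of 0.38 (SE 0.072, limma adjusted p = 0.464). Its log2 levels were 3.46 to 3.79 in replicate 1 and 3.84 to 4.28 in replicate 2, so these groups did not overlap. At these dim levels RMA compresses differences.

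**Figure D1:**
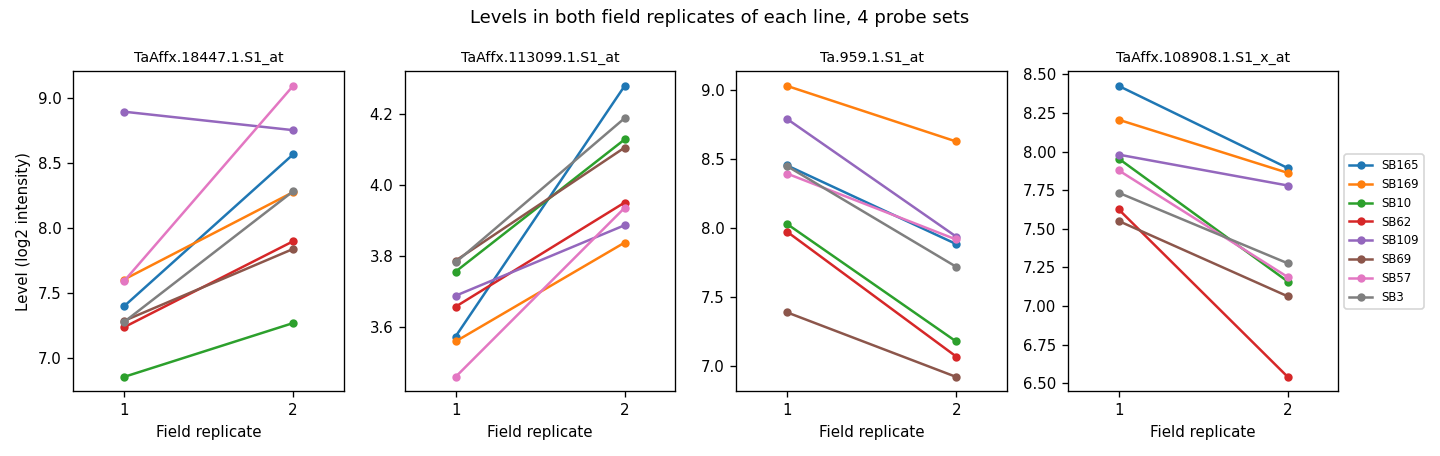
Log2 intensity of the 4 probe sets of largest positive and negative moderated t, with field replicate 1 and 2 on the horizontal axis and 1 line of a colour for each wheat line. The 2 probe sets on the right are lower in replicate 2 in 8 of 8 lines, while SB109 goes against the rest in the panel of TaAffx.18447.1.S1_at; each panel has its own vertical scale, which does not start at 0.

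Beyond single probe sets, the replicate difference was tested for a part common to the lines, and the test did not pass. The mean profile over the 8 lines took up 18.8% of the summed squared within-line differences, where the average over all patterns of signs is 12.5%. In the two-sided exact permutation of the sign of each line's difference (128 distinct patterns), p was 0.0781. Of the probe sets, 635 (1.04%) had 1 sign in all 8 lines, 266 of them higher (0.435%) and 369 lower (0.604%). Independent and evenly split signs would give a proportion of 0.00781. Lines contributed unequally to the sum of squares, with 22.8% from SB3 and 18.5% from SB165, and between 7.40% and 11.6% from each of the others.

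The lines fell into opposed profiles. All 15 correlations among SB165, SB169, SB10, SB69, SB57 and SB3 were positive, from 0.080 to 0.54. All 12 of these lines with SB62 or SB109 were negative, from -0.29 to -0.0029, and SB62 with SB109 gave 0.15. Each is a correlation over 61115 probe sets, which are not independent, and any overall response of an array to its hybridisation enters every pair. The direction of large changes followed the same division only in part. Probe sets at least 2-fold apart between replicates were 802 up and 160 down in SB165, 1031 up and 52 down in SB3, 203 up and 119 down in SB10, and 95 up and 9 down in SB169. They were 7 up and 100 down in SB62 and 44 up and 192 down in SB109, but SB69 had 45 up and 66 down and SB57 56 up and 48 down. Of the 1031 at least 2-fold higher in replicate 2 of SB3, 553 were so in SB165 too, which is 53.6% of the list of SB3 and 69.0% of that of SB165. Among all 61115 probe sets, 1.57% in SB165 and 1.77% in SB3 were at least 2-fold apart in either direction. The overlap was not counted for other pairs of lines.

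**Figure D2:**
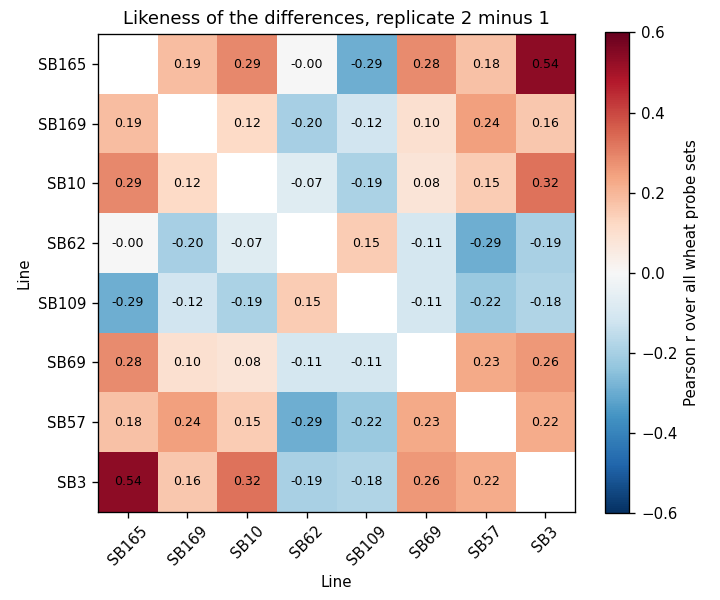
Pearson correlation, for each pair of lines, of the replicate 2 minus replicate 1 differences over 61115 probe sets; colour and printed value give r. The highest value is between SB165 and SB3 (0.54), and the rows of SB62 and SB109 are negative against the 6 other lines.

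SB165 and SB3 together held 41.3% of the sum of squares, and much of the upward side went with them. Without these lines, 0 of 61115 probe sets passed in limma (0%, lowest adjusted p 0.103), with 2159 at an unadjusted p under 0.05 (3.53%), 1068 higher and 1091 lower. The common share of the 6 remaining profiles was 15.1% against an average of 16.7% over the sign patterns (two-sided exact permutation p = 0.594, 32 patterns, smallest possible 0.0312). Probe sets of 1 sign in all 6 lines numbered 1491 (2.44%), 729 of them higher. Of the 42 mean shifts of 2-fold or more, 1 stayed that large, and of the 416 of 0.5 or more, 41 did. These were picked by means that include SB165 and SB3, the lines with the most 2-fold differences, so a drop was built into the choice. Of the 5093 at an unadjusted p under 0.05, 1494 (29.3%) also had an unadjusted p under 0.05 in the same direction without SB165 and SB3. That list too was picked with both lines included, and fewer lines entered the second fit.

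Of the 11 gene lists, histones had the largest median difference, though none passed. The 5 genes, coding for the core histones H2A and H2B, had 18 probe sets, many of which share sequence and so are not separate measurements. The mean difference was positive in 18 of 18, with a median of 0.64 log2 units where that of all wheat probe sets was -0.010. At an unadjusted p under 0.05 were 9 of 18, all higher (50.0%), and 0 passed in limma, the lowest adjusted p being 0.555. That share was 8.33% among all probe sets but 17.1% among the 1273 paired with a gene. Among the 200 with a gene name, which hold the lists, 19 were higher and 13 lower at that threshold. The level of H2A-9 at Ta.27657.6.S1_x_at shows how uneven the lines were. In replicate 1 its log2 level was 4.75 in SB3, 6.81 in SB10, 4.29 in SB57, 4.56 in SB62, 4.59 in SB69, 7.27 in SB109, 4.42 in SB165 and 4.34 in SB169. In replicate 2 it was 9.51 in SB3, 8.51 in SB10, 4.31 in SB57, 4.31 in SB62, 5.60 in SB69, 7.35 in SB109, 7.51 in SB165 and 3.84 in SB169. SB165, SB10 and SB3 thus stood well above their first replicate, SB109 was high in both, and the replicate groups overlapped. The mean difference was 1.24 log2 units (SE 0.46, SD 1.86, limma adjusted p = 0.557).

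The same lines stood out over the whole list. The median histone difference was 2.70 log2 units in SB3, 1.34 in SB165 and 1.14 in SB10, with 18, 17 and 18 of 18 probe sets positive. It was 0.057 in SB62, 0.025 in SB69 and 0.020 in SB169, and it was -0.16 in SB109 and -0.26 in SB57, where 14 of 18 were negative. The differences of the single probe sets reached 5.02 log2 units in SB3. H2B-8 and H2A-9 had the widest ranges, while H2B-6 had mean differences of 0.11 and 0.13 on its 2 probe sets. Without SB165 and SB3 the median over the list was 0.12 log2 units and 0 of 18 were at an unadjusted p under 0.05. Without SB3 alone it was 0.36. With robust moderation of the spread, with a floor of 16, or without the term for line, 0 of 18 were at an unadjusted p under 0.05, and without SB165 alone 2 of 18 were.

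**Figure D3:**
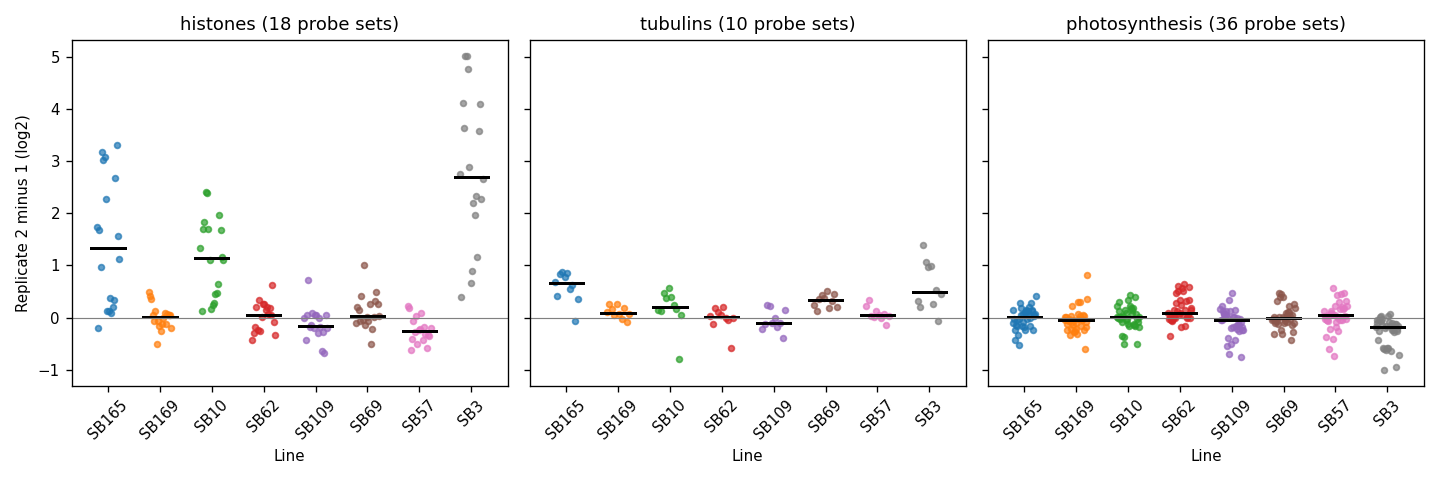
Replicate 2 minus replicate 1 in log2 units for each probe set (points) of the histone, tubulin and photosynthesis lists, by line, with the list's median in each line as a black bar. Histone medians are 1.34, 1.14 and 2.70 in SB165, SB10 and SB3 and between -0.26 and 0.057 elsewhere; the photosynthesis median of SB3 is -0.18.

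Tubulins differed by less but more evenly. The 6 genes had 10 probe sets, of which 9 had a positive mean difference and 8 an unadjusted p under 0.05, all 8 higher. This share was 80.0%, against 17.1% of the probe sets paired with a gene and 8.33% of all. None of the 10 passed in limma (lowest adjusted p 0.555), and their median was 0.21 log2 units. Beta-tubulin Tubb5 had 4 probe sets with mean differences between 0.38 and 0.46, and at Ta.214.1.S1_at the log2 level was higher in replicate 2 in 8 of 8 lines. There it was 7.78, 8.44, 7.89, 7.88, 8.04, 7.99, 7.90 and 7.60 in replicate 1 of SB3, SB10, SB57, SB62, SB69, SB109, SB165 and SB169. In replicate 2 of the same lines it was 9.17, 8.90, 7.92, 8.05, 8.41, 8.24, 8.74 and 7.75. SB3 and SB165 had the largest differences, 1.39 and 0.84, SB57 the smallest, 0.025, and the replicate groups overlapped (mean 0.46, SE 0.12, limma adjusted p = 0.555). Tubb1, Tubb2 and Tubb3 had mean differences of 0.15, 0.19 and 0.22, and Tubb4 0.13. The probe sets of alpha-tubulin TUBA went apart, with 0.16 at Ta.812.1.S1_x_at and -0.21 at Ta.723.1.S1_at, the latter lower in 7 of 8 lines.

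By line, the tubulin median was 0.66 log2 units in SB165, 0.49 in SB3, 0.34 in SB69, where 10 of 10 were positive, and 0.20 in SB10. It was 0.090 in SB169, 0.041 in SB57, 0.014 in SB62 and -0.10 in SB109. SB165, SB3 and SB10 thus had positive medians in tubulins as in histones, and SB69 had a positive tubulin median with a histone median near 0. Without SB165 and SB3 the tubulin median was 0.099, with 9 of 10 still positive and 4 of 10 at an unadjusted p under 0.05. Without the term for line, 2 of 10 were at an unadjusted p under 0.05. Array and RNA measures also differed in these lines. The hybridisation control bioB, added in a fixed amount, differed by 0.42 in SB165, 0.73 in SB10 and -0.92 in SB3, and by 0.69 in SB169, 0.68 in SB57 and -0.67 in SB109, where histone medians were near or below 0. The 3′ minus 5′ level of the cytochrome P450 CYP86-TA differed by 1.03 in SB3, the largest difference of any line, and by 0.15 in both SB165 and SB10. That of actin differed by -0.070 in SB165, -0.14 in SB10 and -0.15 in SB3. The 3′ probe sets of CYP86-TA and actin were dim, at mean log2 levels of 3.81 and 3.65. For sucrose synthase, whose 3′ probe set was bright (mean log2 level 11.035), the 3′ minus 5′ level differed by 0.77 in SB165 and 0.50 in SB3. It differed by 0.54 in SB69, 0.51 in SB62, 0.24 in SB57 and 0.063 in SB109, and by -0.15 in SB10 and -0.13 in SB169. The part of these array and RNA measures in the histone and tubulin values was not tested.

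Of the other lists, heat shock, which is 1 probe set, differed by -0.46 log2 units and the 2 probe sets of cell walls and lignin had a median of 0.19; the medians of the remaining 7 lay between -0.039 and 0.057, and each of these 7 changed sign under at least 1 alternative. Photosynthesis genes (the large Rubisco subunit rbcl, PsbO, PsbP, petC, FBP and PRK) had 36 probe sets with a median of -0.029 log2 units, and 1 of 36 was at an unadjusted p under 0.05. That was a probe set of PsbP, part of the oxygen-evolving complex, with -0.15 (limma adjusted p = 0.572), while the other PsbP probe set gave -0.041. SB3 was the exception among the lines, with 32 of 36 lower and a median of -0.18 in replicate 2, and SB62 had 25 of 36 higher with a median of 0.088. Without SB165 and SB3 the median was 0.020, and it was positive also without SB109 alone (0.0043) and without SB3 alone (0.028).

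For fructan and sucrose, 1-FEH differed by -0.0074 log2 units (SE 0.055), with a log2 level from 10.78 to 11.23 in replicate 1 and 10.59 to 11.30 in replicate 2. Fructan 6-exohydrolase, 6-FEH, had 3 probe sets that did not go together, at 0.23, 0.18 and -0.20. At Ta.9641.1.A1_a_at its differences ran from -0.84 in SB165 to 1.34 in SB109, with 4 of 8 lines higher. The invertase IVR1 was dim, at a mean log2 level of 2.88. None of the 5 passed in limma (lowest adjusted p 0.589), and 1 of 5 was at an unadjusted p under 0.05.

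Genes of stress responses gave no call either. The small heat shock protein hsp16.9A was bright in some lines only. Its log2 level was 7.83 and 6.46 in replicates 1 and 2 of SB165, 6.18 and 6.27 in SB109, and 6.56 and 4.62 in SB3. In the remaining lines it lay between 2.26 and 2.96. The mean difference of -0.46 (SE 0.20, limma adjusted p = 0.585) came from SB3 (-1.94) and SB165 (-1.36), and without them it was -0.060. Among lines it passed the F-test (limma adjusted p = 8.61e-06). The 10 probe sets for dehydrins and late embryogenesis abundant proteins, made as tissue dries, had a median of -0.0017 and mean log2 levels from 2.22 to 4.59. The dehydrin COR410, at -0.16, was the 1 of 10 at an unadjusted p under 0.05 (limma adjusted p = 0.599).

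Of 9 probe sets for pathogen response, 7 had a negative mean difference, with a median of -0.021 log2 units, and 1 was at an unadjusted p under 0.05. That was wci, a wheat chemically induced gene, at -0.20 and lower in 7 of 8 lines (SE 0.075, limma adjusted p = 0.556). PR5, a thaumatin-like protein, differed by -0.28 (SE 0.13, limma adjusted p = 0.605). Its log2 level was 10.54 in replicate 1 and 9.23 in replicate 2 of SB10, while the other 7 lines differed by -0.45 to 0.38, and without SB10 the mean difference was -0.13. XTH, a xyloglucan endotransglucosylase that remodels growing walls, differed by 0.25 (SE 0.12, limma adjusted p = 0.609) and was higher in 6 of 8 lines, with -0.65 in SB62 and a mean of 0.38 without that line. COMT1 differed by 0.12. The 3 gibberellin 20-oxidases, enzymes of the hormone that drives stem elongation, had 4 probe sets between -0.067 and -0.025. Anther and pollen markers had a median of 0.0026 and a range from -0.099 to 0.12, with 0 of 6 at an unadjusted p under 0.05. Grain storage proteins had a median of -0.039, with 1 of 17 at an unadjusted p under 0.05, the gliadin Gli-D2-16 at -0.20 (limma adjusted p = 0.585).

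**Figure D4:**
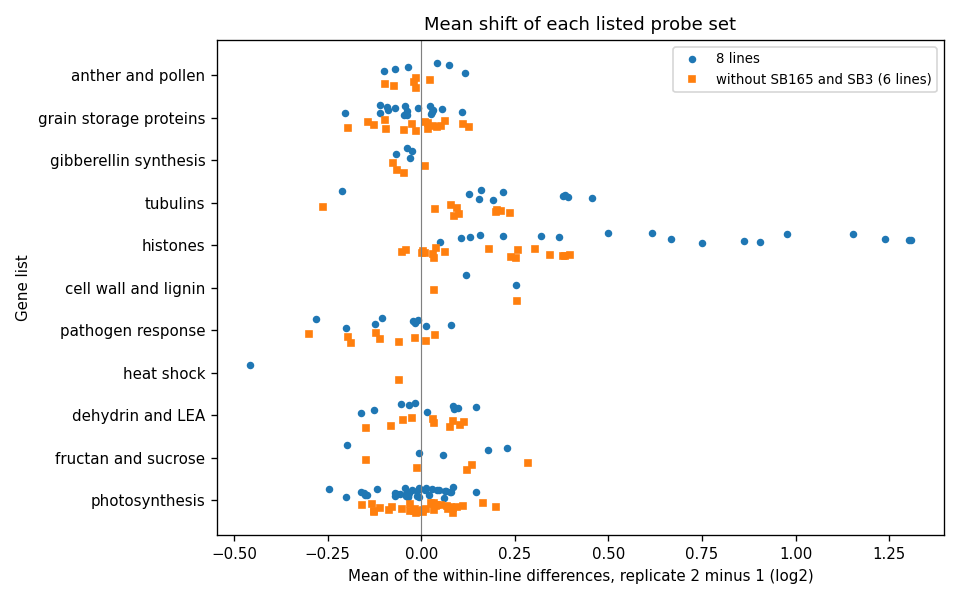
Mean of the within-line differences, replicate 2 minus replicate 1 in log2 units, for each probe set of the 11 gene lists, over the 8 lines (circles) and without SB165 and SB3 (squares); the vertical spread of points within a list has no meaning. Histone circles lie between 0.049 and 1.31 with a median of 0.64, and their squares have a median of 0.12.

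Other named genes with large statistics did not pass. BMY1, a beta-amylase that releases maltose from starch, differed by 0.82 log2 units (SE 0.30, limma adjusted p = 0.555). In SB109 its log2 level was 5.23 in replicate 1 and 8.52 in replicate 2, the widest difference of the 8 lines, and without SB109 the mean difference was 0.47. SB3 had 4.60 and 6.11, SB165 5.08 and 5.93, SB69 5.13 and 5.94, SB169 5.08 and 5.80, and SB10 5.94 and 6.35. It was lower in replicate 2 of SB62, at 4.34 and 3.94, and of SB57, at 5.38 and 4.78, so the groups overlapped. In the other direction, FKBP70, of the FK506-binding family that assists protein folding, differed by -0.30 (SE 0.092, limma adjusted p = 0.555). It was lower in 7 of 8 lines, from -0.76 in SB165 to 0.22 in SB10. The catalase CAT1, which breaks down hydrogen peroxide, differed by -0.32 at one probe set (SE 0.10, limma adjusted p = 0.555) and by -0.11 at its brighter one, each lower in 7 of 8 lines.

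The remaining named genes with the largest negative statistics differed by less. Both probe sets of amylase and trypsin inhibitors (ATI) in this set, from different genes, gave -0.22 and -0.18 log2 units, and their adjusted p-values were 0.558 and 0.58. GSTZ1, a zeta-class glutathione transferase, gave -0.16 at TaAffx.56524.1.S1_at, and -0.15 and 0.0047 at its other probe sets. The gene cys1 gave -0.12 and was lower in 7 of 8 lines.

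Of the 25 control probe sets named for wheat genes, 0 passed in limma and 2 were at an unadjusted p under 0.05. Their mean differences ran from -0.27 to 0.19 log2 units. Sucrose synthase, which splits sucrose for use in sink tissue, differed by 0.021 at its 3′ probe set, -0.062 at its middle one and -0.27 at its 5′ one (SE 0.11, limma adjusted p = 0.564). The 5′ probe set was lowest against its replicate in SB165 (-0.86), SB3 (-0.64) and SB62 (-0.49), and higher in SB169 (0.33) and SB57 (0.028). Signs at the 3′ and middle probe sets changed with scaling or with the lines entered. Glucose-6-phosphate dehydrogenase, which opens the oxidative branch of the pentose phosphate route, differed by 0.19 (3′), 0.15 (middle) and 0.11 (5′ probe set), each higher in 6 of 8 lines (lowest limma adjusted p 0.661). A 5′ glyceraldehyde-3-phosphate dehydrogenase probe set was lower in 8 of 8 lines, by 0.011 in SB69 up to 0.54 in SB3, with a mean of -0.20 (SE 0.077, limma adjusted p = 0.559). The other probe sets of that gene did not go with it. Its second 5′ probe set differed by 0.0165 and was higher in 5 of 8 lines, the 3′ one gave -0.016, and the middle ones 0.050 and 0.0049. Ubiquitin, the tag for protein breakdown, differed by -0.042 at the 3′, 0.0043 at the middle and -0.042 at the 5′ probe set, and the sign of the middle one turned with array weights and without SB57, SB62 or SB109.

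Measures of the arrays and of the RNA were put to the same question. Of 19 measures, 0 passed the two-sided exact sign permutation over the 8 lines after Benjamini-Hochberg adjustment, and the lowest unadjusted p was 0.0312, for the poly-A control trp (adjusted 0.544). The smallest p that 8 lines allow is 0.00781, which for a single measure is 0.148 after adjustment, so 1 measure alone could not have passed. The hybridisation control bioB differed by 0.051 ± 0.68 log2 units (SD, n = 8 lines). It was higher in replicate 2 of SB10 (0.73), SB169 (0.69), SB57 (0.68) and SB165 (0.42), level in SB69 (0.005), and lower in SB3 (-0.92), SB109 (-0.67) and SB62 (-0.52). Apart from SB3 these are the same signs as the division of the lines by profile. The array median matched that division in every line. It was higher in replicate 2 of SB62 (0.046) and SB109 (0.019) and lower in the 6 other lines. The lower quartile of the array did the same, at 0.091 in SB62 and 0.035 in SB109, while the upper quartile was lower in SB62, SB109 and SB165. The part of hybridisation and of overall array signal in that division was not tested. The 3′ minus 5′ level of sucrose synthase, which widens as RNA is degraded or copied short, differed by 0.29 ± 0.34 (SD, n = 8 lines, exact permutation p = 0.0625, adjusted 0.544). It was higher in 6 of 8 lines, by 0.77 in SB165, 0.54 in SB69, 0.51 in SB62 and 0.50 in SB3. For CYP86-TA it differed by 0.22 ± 0.42 and was higher in 6 of 8 lines, with 1.03 in SB3 and -0.43 in SB109 (exact permutation p = 0.172, adjusted 0.811, n = 8 lines). For actin it differed by -0.11 ± 0.17 and for elongation factor 1-alpha by 0.12 ± 0.51. The 3′ probe sets of actin, CYP86-TA and elongation factor 1-alpha were dim, at mean log2 levels of 3.65, 3.81 and 3.71. Their 3′ minus 5′ levels are therefore weak measures of the RNA.

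**Figure D5:**
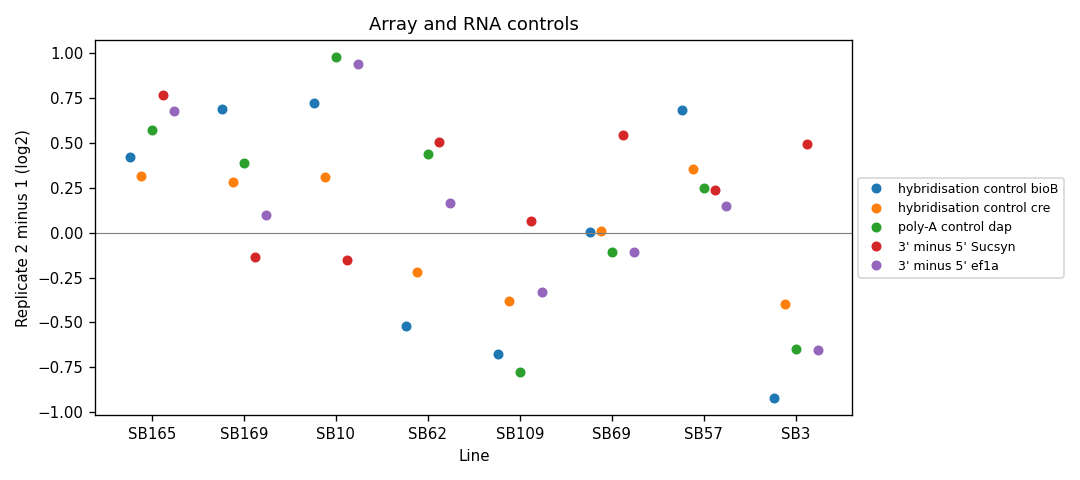
Replicate 2 minus replicate 1, in log2 units, of 2 hybridisation controls, 1 poly-A control and the 3′ minus 5′ level of sucrose synthase (Sucsyn) and elongation factor 1-alpha (ef1a), by line. Points lie on both sides of 0: bioB is at -0.92 in SB3 and 0.73 in SB10, and Sucsyn is above 0 in 6 of 8 lines.

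A term for the field replicate raised the number of probe sets that differed among lines, by limma's F-test, from 2441 (3.99%) to 2924 (4.78%), with 2408 in both lists. Ta.959.1.S1_at was one that passed with the term (limma adjusted p = 4.88e-05) and not without it (0.146). Because this probe set was singled out by its replicate difference, a gain from the term was built into the choice. Its line means ran from 7.15 in SB69 to 8.83 in SB169. Without SB165 and SB3, the counts among the 6 remaining lines were 4327 (7.08%) without the term and 4170 (6.82%) with it, so there the term lowered the count.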

How the data were processed

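The members, gene lists and tests were chosen with earlier results of these data known. The values are intensities the authors deposited for each probe set on each array. GCOS and RMA are the tools listed, without versions, per the submitters' processing notes, and the linear scale was read from the values. RMA compresses differences of dim probe sets and evens out overall signal between arrays. Scan, extraction and labelling batches are not given in the sources used here.

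From the table of 61289 probe sets, 61115 wheat probe sets were tested, with 25 of the 110 control probe sets (those named for wheat genes) fitted alongside, and the 64 reporter probe sets were left out. Values were floored at 1 and converted to log2. In limma 3.58.1 (R 4.3.3), a model with line and field replicate was fitted to each probe set, and eBayes with an intensity trend gave 7.39 prior beside 7 residual degrees of freedom. The replicate coefficient is the mean of the 8 within-line differences. P-values were adjusted by Benjamini-Hochberg over all probe sets, with a threshold of 0.05. Single values were tested by two-sided exact permutation of the signs of the line differences, in Python 3.11.15 with numpy 2.4.6, pandas 2.3.3 and scipy 1.17.1. Plots used matplotlib 3.10.9. The fit was tested on simulated data.

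Probe sets were named through the platform's annotation table, by Entrez identifier, in RefSeq's IWGSC CS RefSeq v2.1 table: 1273 had 1 gene (771 genes, 1272 found in RefSeq), 0 had several and 59842 had none. Of the 1273, 200 had a name other than a locus number (102 genes). The probe sets named are the 2 of largest moderated t each way over all probe sets, the 10 of largest moderated t each way among the 200, the 25 controls, and members of 11 lists (48 genes). The lists were extended by name once the names were seen. Planned genes of hypoxia and the clock were not among the names. Alternatives were lines left out, quantile normalization, median centring, a filter on dim probe sets, a floor of 16, other models of the spread, array weights, no line term, removal of identifiers ending in _x_at, _s_at or _a_at, and other thresholds. Array number limits the precision.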

Additional observations from a re-analysis of the deposited data

Results flagged for a closer look

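The change in the 3′ minus 5′ level of actin, from replicate 1 to replicate 2, was -0.455 log2 units in SB109, and the nearest other line was SB3 at -0.146. The 3′ probe set of actin was dim, at a mean log2 level of 3.65 against 5.48 at the 5′ one. The gap between SB109 and SB3 was 0.555 of the range over the 8 lines, above Dixon's critical value of 0.526. Of 70 sets of 8 differences examined this way, 1 stood out, and chance alone gives about 1 in 20. SB109 was also the line that went against the others at TaAffx.18447.1.S1_at.

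Among the 64 reporter probe sets, which entered no comparison, the brightest had a mean log2 level of 13.852 and the next 5.934. Its replicate difference was 0.062 ± 0.23 log2 units (SD, n = 8 lines), higher in 4 of 8 lines (exact permutation p = 0.453).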

How the results depend on the processing

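The number of probe sets that passed was 1. It was 0 without SB165 and SB3, with arrays centred on their medians, with a floor of 16 (where 19957 probe sets, 32.7%, lie at the floor on all arrays), with no term for line, and at an adjusted p under 0.01. The same alternatives gave 0 lower. At an unadjusted p under 0.05 the counts were 5093 in all, 2779 higher and 2314 lower, and 2 of the 25 named controls. Leaving out each line in turn gave 0 to 3 in all, 0 to 1 higher and 0 to 2 lower. Ta.959.1.S1_at then had adjusted p-values from 0.0273 to 0.0712, and was joined by Ta.13622.1.S1_at without SB10 (-1.70, limma adjusted p = 0.0021) and, without SB109, by Ta.5372.1.S1_at (-0.89) and TaAffx.18447.1.S1_at (0.85), each at a limma adjusted p of 0.0491. With a floor of 16 the adjusted p of Ta.959.1.S1_at was 0.791, and with no term for line 0.887. Its difference was unchanged at -0.658 in both, and with no term for line the differences among lines enter the residual spread. Other alternatives kept the call, with adjusted p-values from 0.00193 to 0.0302. Apart from the stricter threshold and the missing term for line, the cause of a lost call was not tested.

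The common share ran from 16.4% to 26.0% with a line left out. It passed only without SB109, at 26.0% (exact permutation p = 0.0312). Probe sets of 1 sign in every line numbered 635. They were 1491 without SB165 and SB3 and 909 to 2180 with 1 line left out, where fewer signs have to match. Above the median level they were 403 of 30557 probe sets, against 635 of all 61115. Among lines, 2924 differed with the replicate block against 2441 without it, 4327 with no block and without SB165 and SB3, and 4170 with the block and without that pair. Deviations of same-numbered arrays correlated over 0.1 in 14 of the 28 pairs of lines and under -0.1 in 10. The test among lines was planned without the replicate block, with the block as its alternative.

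The median histone difference of 0.64 became 0.12 without SB165 and SB3 and ran from 0.36 to 0.79 with 1 line left out, and that of tubulins, 0.21, became 0.099 and ran from 0.15 to 0.26. The alternatives were planned, and applying them to list medians was added after the data were seen. The sign turned under at least 1 alternative at 11 of the 25 named controls, with differences of at most 0.062 in size, and in the medians of 7 of the 11 lists, with medians of at most 0.057 in size. Sucrose synthase gave -0.011 at its 3′ probe set with quantile normalization and from -0.018 (without SB69) to 0.064 (without SB10) with a line left out, below 0 also without SB57 (-0.015) and SB169 (-0.005), and 0.010 at its middle one without SB165 and SB3. Ubiquitin's middle probe set gave -0.008 with array weights and from -0.010 (without SB109) to 0.021 (without SB169) with a line left out, at -0.001 without SB62 or SB57. Over the 25 controls 32 of 444 such values turned, and over the lists 24 of 196.

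The number of plots limits the precision, RMA compresses differences of dim probe sets, and the labels do not tell whether same-numbered plots shared a block. Most probe sets have no gene name here, so the named groups cover few genes.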
